A study of Mus musculus with 16 samples.

Results

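Male (XY) and female (XX) urethral mesenchyme was compared at embryonic day 16.5 (E16.5) in 8 RNA-seq libraries of the 16 in the series, 4 male and 4 female. The 8 are the libraries labelled as urethral mesenchyme, and each male library was paired with the female library of its litter. Only autosomal genes were compared, so transcripts that differ because they sit on the X or Y chromosome are left out. The series holds mesenchyme of the bladder and the pelvic urethra from both sexes, with all 4 tissue and sex combinations taken from each of 4 litters. The embryos were wild-type CD-1 mice, an outbred stock, and none received a treatment. Embryos of a sex were pooled within the litter, so a library is a pool and not 1 animal, and the replicates are 4 independent litters. Epithelium was pulled away from the mesenchyme with forceps after trypsin on ice. The labels do not say how many embryos made up a pool.

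Urethral mesenchyme is the connective tissue and muscle progenitor layer around the urethral epithelium, and in males the prostate grows out of that epithelium. The fetal testis makes testosterone, which 5α-reductase turns into dihydrotestosterone within the urogenital sinus, and androgens acting on the mesenchyme change genes whose products instruct the epithelium. In females, without these androgens, the Wolffian ducts regress and the Müllerian ducts, which anti-Müllerian hormone removes in males, go on to form the reproductive tract.

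The 8 libraries held 24447435 to 29698009 counted fragments each. Counts of Xist and of 4 Y-linked genes went with the sex label in all 8. Each of 10 mesenchyme markers was detected, and their summed level was 8191 to 9581 CPM, counts scaled to the size of the library,  in females and 7864 to 8829 CPM in males. The 31 epithelium markers were detected as well, with none at 0 in all libraries. Their summed level in litters 1 to 4 was 3459, 3632, 2091 and 1376 CPM in females and 4218, 3412, 3736 and 4500 CPM in males. Female libraries of litters 3 and 4 therefore stood apart, with the least epithelial RNA. The part of epithelium in the sex difference as a whole was not tested by the design, and counts from fits with it as a covariate are given beside the main gene lists. Such a fit does not make a count free of epithelium.

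**Figure D1:**
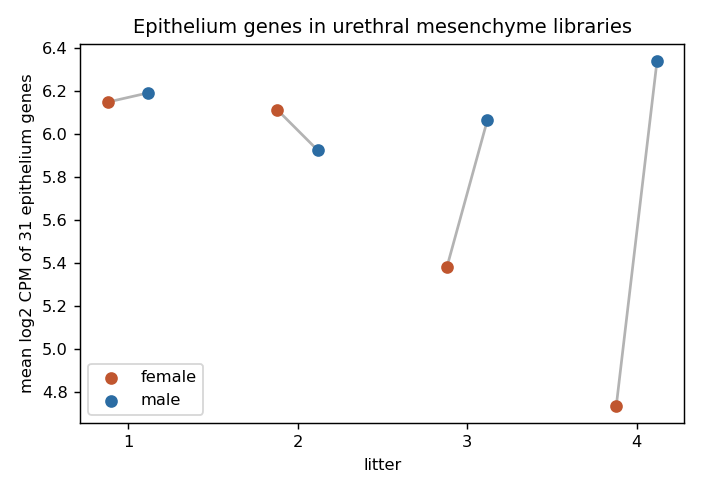
Mean log2 CPM of 31 epithelium marker genes (y axis) in each urethral mesenchyme library, by litter (x axis), females in orange and males in blue, with the libraries of a litter joined by a line. Males lie between 5.924 and 6.339, and the females of litters 3 and 4 lie lower, at 5.38 and 4.738.

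Of 17119 autosomal genes tested, 572 (3.34%) were higher and 443 (2.59%) lower in male than in female urethral mesenchyme, by edgeR's quasi-likelihood test with litter in the model and a Benjamini-Hochberg adjusted p under 0.05. Together 5.93% of the genes were called. All 1015 had 1 direction in every litter, which held for 29.1% of all genes tested. Male and female libraries did not overlap for 903 of the 1015, while of all genes tested 7.72% lay higher and 5.51% lower in males without overlap. Differences were larger on the male side. At least 2-fold, males exceeded females at 228 genes (1.33%) and females males at 71 (0.415%), and the median size of a called difference was 0.82 on the log2 scale for the first direction and 0.55 for the second. Every autosome held called genes, from 4.32% of those tested on chromosome 17 to 7.88% on chromosome 1. With the mean of the epithelium markers as a covariate beside litter, the calls came to 348 higher and 175 lower in males, 295 and 158 of them the same genes. Of the at least 2-fold differences 139 and 43 were kept in that fit.

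**Figure D2:**
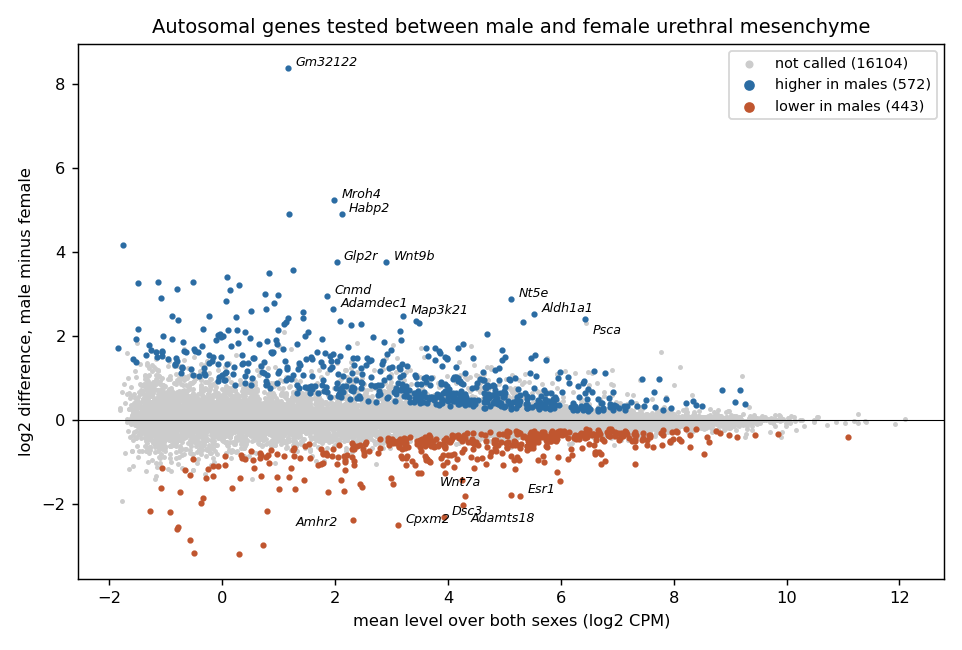
Male minus female log2 difference (y axis) against the mean level of both sexes as log2 CPM (x axis) for 17119 autosomal genes, with 572 called higher in blue, 443 called lower in orange and the others in grey. Names mark some of the largest differences, and the upper side reaches further from 0 than the lower side.

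The steroid hormone genes differed mostly at single steps. Of 22 measured autosomal genes of hormone synthesis, breakdown and reception, 3 were higher and 2 lower in males (22.7%, median log2 difference −0.051, against 0.006 over all autosomal genes), and with the epithelium covariate 2 were higher and 1 lower. Srd5a2 encodes the 5α-reductase that makes dihydrotestosterone and lies on chromosome 17. It stood at 33.6, 22.6, 28.2 and 27.2 CPM in male litters 1 to 4 and at 8.44, 6.41, 9.95 and 8.95 CPM in females. The lowest male library was thus above the highest female one by more than the spread of either sex, and the log2 difference was 1.73 ± 0.10 (standard error, here and below; adjusted p = 9.6e-05). Sult1e1, an oestrogen sulphotransferase that inactivates oestrogens, was also higher in males, at 2.99 ± 0.533 against 0.368 ± 0.16 CPM (SD, n = 4 litters, as for all CPM below), a log2 difference of 3.01 ± 0.29. Hsd11b1, which regenerates active glucocorticoid, was higher at a low level of 0.795 ± 0.0812 against 0.316 ± 0.0676 CPM, and its call was lost in 8 of 15 alternative fits.

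Of the measured receptors, those called went the other way. Esr1, the oestrogen receptor alpha gene on chromosome 10, had 16.7, 15.2, 18.4 and 18.5 CPM in males and 54.1, 55.2, 63.4 and 69.5 CPM in females, a log2 difference of −1.81 ± 0.06 (adjusted p = 8.4e-06). No male library came near the female range. Pgr, the progesterone receptor gene and a classical oestrogen target, had a lower level in males, 6.44 ± 2.08 against 11.8 ± 1.6 CPM (−0.90 ± 0.18, adjusted p = 0.026), but with the epithelium covariate its adjusted p was 0.15. Without replicate 1, 2 or 4 it was 0.057, 0.081 and 0.068. Greb1, another oestrogen-responsive gene, did not pass the test (−0.38 ± 0.13, adjusted p = 0.14). In pooled tissue, a change in the number of cells that make a transcript and a change in its amount per cell cannot be told apart, here or in the results that follow.

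Genes known to respond to androgens or glucocorticoids held the largest share of calls among the 30 lists examined. Of 20 measured members 9 were higher and 2 lower in males, 55% against 5.93% of all autosomal genes, with a median log2 difference of 0.341. Some of these genes were chosen with earlier results of these libraries known, so the share describes the list and is no independent support for its direction. With the epithelium covariate 7 were higher and 2 lower.

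Fkbp5, an immunophilin that binds steroid receptor complexes and is induced by both hormone classes, had 144, 137, 117 and 134 CPM in males and 53.1, 63.6, 55.9 and 64.7 CPM in females (log2 difference 1.16 ± 0.07, adjusted p = 0.00015). Zbtb16 encodes PLZF, a zinc finger repressor induced by glucocorticoids and androgens. Its levels were 17.5, 15.7, 17.8 and 20.7 CPM in males and 2.2, 3.74, 3.37 and 5.1 CPM in females (2.35 ± 0.16, adjusted p = 0.00021). For both genes every male library lay above every female one. Klf9, a Krüppel-like factor induced by glucocorticoids, was higher by 0.99 ± 0.10, Penk, the proenkephalin gene, by 0.97 ± 0.05, and Errfi1, a feedback inhibitor of the EGF receptor, by 0.73 ± 0.07. Sgk1, a serum and glucocorticoid regulated kinase on chromosome 10, had 57.7, 48.3, 45.1 and 50.7 CPM in males and 33.8, 31, 30.9 and 33.7 CPM in females (0.64 ± 0.06, adjusted p = 0.0011). Tiparp, a mono-ADP-ribosyltransferase, was higher by 0.43 ± 0.07, a call lost in 4 of 16 alternative fits. Its adjusted p was 0.067 without replicate 2 and 0.062 with the epithelium covariate beside litter. Without female replicates 3 and 4 and without litter it was 0.086. The 2 members that were lower in males encode secreted factors: Angpt1, a ligand of the endothelial receptor Tie2 (−0.95 ± 0.10), and Inhba, the beta A subunit of activin and inhibin (−0.87 ± 0.10).

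The promoter windows of the genes are shown because several of these genes are targets of steroid hormones. RefSeq windows of build GRCm38.p6, 250 bases before to 50 after an annotated start, matched 11889 of the 17119 genes (15199 windows). Both strands were searched for the androgen and glucocorticoid response palindrome, which is AGAACA, any 3 bases and then TGTTCT, for its short core AGAACA alone (so that each palindrome also holds the core), for the oestrogen receptor palindrome, which is GGTCA, any 3 bases and then TGACC, and for the STAT5 site TTCNNNGAA. The full androgen and glucocorticoid palindrome occurred in 1 window of all (0.00658%), which belongs to Sgk1. The short core was in 12.5% of all windows, in 15.7% of the windows of genes higher in males, in 20.9% of those at least 2-fold higher, in 10.8% of those of genes lower in males and in 9.52% of those at least 2-fold lower. Of the genes with the largest differences, Cnmd (higher in males) and Hdc (lower) each held 1 core. No core was found in the windows of Habp2, Glp2r, Wnt9b, Nt5e, Aldh1a1, Map3k21, Cpxm2, Amhr2, Adamts18, Esr1, Wnt7a, Grem1 or Prokr2. The windows of Fkbp5, Srd5a2 and Inhba held none either. The oestrogen receptor palindrome was in 4 windows of all (0.0263%), 1 of them of a called gene, Evx2, a homeobox gene beside the Hoxd cluster (log2 difference −0.42 ± 0.08, adjusted p = 0.028, a call lost in 9 of 16 alternative fits and without replicate 1, 2 or 4, at 0.056, 0.11 and 0.071). The STAT5 site was in 6.73% of all windows, and in 7.01% and 5.76% of those of genes higher and lower in males. Sgk1 and Evx2 were singled out after the search. The windows were these, 5′ to 3′ on the gene's strand, with the matches in capitals (at Sgk1 a core near the 5′ end and the palindrome from base 62, at Hdc the core's reverse complement, at Evx2 the oestrogen palindrome):
Sgk1, chr10:21993640-21993939, plus strand: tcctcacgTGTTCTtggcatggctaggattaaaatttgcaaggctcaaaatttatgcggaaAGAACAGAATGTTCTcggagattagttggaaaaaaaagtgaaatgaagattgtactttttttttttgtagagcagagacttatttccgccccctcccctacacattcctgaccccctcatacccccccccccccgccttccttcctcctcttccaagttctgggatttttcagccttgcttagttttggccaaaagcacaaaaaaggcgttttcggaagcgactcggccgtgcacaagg
Cnmd, chr14:79662134-79662433, minus strand: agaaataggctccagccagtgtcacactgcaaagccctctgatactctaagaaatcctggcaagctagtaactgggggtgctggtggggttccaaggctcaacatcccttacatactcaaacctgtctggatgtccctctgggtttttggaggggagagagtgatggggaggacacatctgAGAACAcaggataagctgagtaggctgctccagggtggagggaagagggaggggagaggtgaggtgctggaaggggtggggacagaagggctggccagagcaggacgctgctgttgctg
Hdc, chr2:126618629-126618928, minus strand: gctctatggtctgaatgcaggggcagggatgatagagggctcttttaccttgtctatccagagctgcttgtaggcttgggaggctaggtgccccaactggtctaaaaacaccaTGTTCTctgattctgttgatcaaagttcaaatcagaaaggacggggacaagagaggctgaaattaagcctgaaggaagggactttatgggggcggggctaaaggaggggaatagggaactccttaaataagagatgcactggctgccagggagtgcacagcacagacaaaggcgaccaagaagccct
Evx2, chr2:74659508-74659807, minus strand: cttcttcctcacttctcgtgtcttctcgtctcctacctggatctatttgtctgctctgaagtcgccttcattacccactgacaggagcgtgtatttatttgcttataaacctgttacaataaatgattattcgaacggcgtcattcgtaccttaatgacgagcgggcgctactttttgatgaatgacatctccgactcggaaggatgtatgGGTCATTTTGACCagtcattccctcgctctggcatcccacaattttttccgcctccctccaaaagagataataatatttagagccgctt
These matches describe letters in a window and not receptor binding, and windows of 5230 tested genes were not examined.

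**Figure D3:**
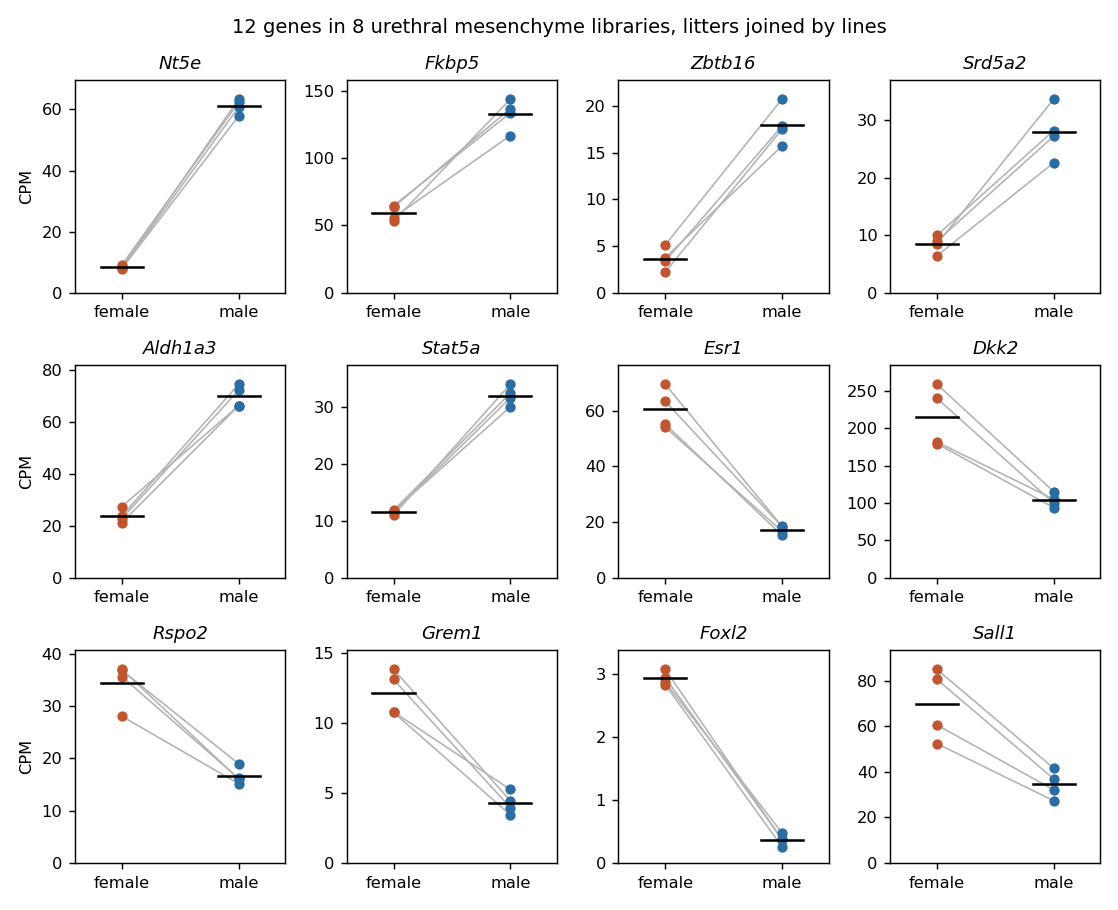
CPM (y axis, from 0) of 12 genes in female (orange) and male (blue) urethral mesenchyme, with a grey line for each litter and a black bar for each mean of 4 libraries. In each panel the 4 male libraries lie on 1 side of the 4 female ones, above for Nt5e, Fkbp5, Zbtb16, Srd5a2, Aldh1a3 and Stat5a and below for Esr1, Dkk2, Rspo2, Grem1, Foxl2 and Sall1.

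WNT signalling genes differed in both directions. Of 56 measured autosomal members, 8 were higher and 9 lower in males, 30.4% against 5.93% of all genes, with a median of −0.019. Among the ligands, Wnt9b had 15.1, 14.5, 15.7 and 10.6 CPM in males and 0.834, 1.33, 0.742 and 1.22 CPM in females, a log2 difference of 3.76 ± 0.21 (adjusted p = 9e-05). Wnt9b is made by Wolffian duct epithelium. Wnt16 (1.82 ± 0.22) and Wnt6 (0.54) were also higher in males, as was Wnt4 (1.14 ± 0.21, adjusted p = 0.044). The Wnt4 adjusted p became 0.15 without replicate 1, 0.2 without replicate 3 and 0.19 with no filter on low counts. Female Wnt4 was 44.8, 53.6, 32.3 and 29.8 CPM in litters 1 to 4, lowest in the libraries lowest in epithelium markers. The part of epithelium in the Wnt4 difference was not tested. Wnt5a, a ligand of non-canonical signalling that drives genital and gut outgrowth, was lower (146.7 ± 10 against 223.5 ± 45.3 CPM, −0.59 ± 0.08). Wnt7a, a ligand of Müllerian duct epithelium, had 7.31, 11.7, 12.3 and 4.77 CPM in males and 36.4, 25.8, 30.9 and 28.4 CPM in females (−1.81 ± 0.26, adjusted p = 0.015). The Wnt7a groups did not overlap, but its call was lost in 7 of 16 alternative fits, with an adjusted p of 0.077 without replicate 1 and 0.055 without replicate 3.

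Secreted WNT inhibitors were called in both directions, and so were the R-spondins. Wif1, which binds WNT ligands, had 15.8, 20.8, 26.3 and 24.5 CPM in males and 7.51, 5.7, 7.49 and 6.92 CPM in females (1.64 ± 0.14). Sfrp2, another ligand-binding antagonist, was higher by 0.72 ± 0.05 (719 ± 34.3 against 436 ± 17.9 CPM). Dkk2, which binds the coreceptor LRP6, was lower, with 93.9, 105, 115 and 99.9 CPM in males and 180, 182, 259 and 241 CPM in females (−1.04 ± 0.08). R-spondins amplify WNT signals at the receptor. Rspo3 was higher in males (108 ± 8.05 against 58.8 ± 5.1 CPM, 0.88 ± 0.07) and Rspo2 lower (15.1, 16.2, 19 and 16.1 against 28.1, 35.7, 36.8 and 37 CPM, −1.05 ± 0.08). Of transcription factors downstream, Sp5, a direct WNT target, was higher by 1.23 ± 0.12 and Lef1, which pairs with beta-catenin, was lower (−0.59 ± 0.08). The number of WNT genes called with the epithelium covariate was 8 higher and 6 lower.

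Retinoic acid synthesis genes were higher in males. Of 18 measured genes of the pathway, 5 were higher and 2 lower (38.9%, median 0.015; with the epithelium covariate 5 and 1), and each of the 3 retinaldehyde dehydrogenases that make retinoic acid was among the 5. Aldh1a1 had 84.7, 86.9, 64 and 79 CPM in males and 17.3, 10.9, 16.8 and 10.2 CPM in females (2.52 ± 0.19, adjusted p = 0.0013). Aldh1a3 had 72.2, 66.2, 74.5 and 66.2 CPM in males and 22.8, 21.3, 23.8 and 27.4 CPM in females (1.55 ± 0.08, adjusted p = 6.2e-05). Aldh1a2 had a smaller difference, 378 ± 32.9 against 273 ± 13.5 CPM (0.47 ± 0.07), and its adjusted p was 0.067 without replicate 2. The group also held Cyp26a1, which breaks retinoic acid down and is itself induced by it (5.39 ± 0.818 against 1.39 ± 0.0999 CPM, 1.94 ± 0.15), and Dhrs3, which returns retinaldehyde to retinol (0.49 ± 0.08, adjusted p = 0.055 without replicate 3). Crabp1, a cytoplasmic retinoic acid binding protein gene, was lower (74.5 ± 6.44 against 146 ± 9.6 CPM, −0.98 ± 0.05). Aldh1a1 and Aldh1a2 are also mesothelium markers, and the summed level of 11 such markers was 876 to 1040 CPM in males and 516 to 689 CPM in females. That sum holds Aldh1a1 and Aldh1a2 themselves, and also Krt19 and Upk3b, which are epithelium markers too. It is therefore no separate measure of mesothelium. Of the 11, 10 had values above 0 (median 0.492), and 7 had an unadjusted p under 0.05. Past the adjusted threshold, besides Aldh1a1 and Aldh1a2, was Wt1, which was lower in males (−0.37 ± 0.08, adjusted p = 0.042), a call lost in 9 of 16 alternative fits and without replicate 1, 2 or 3 (0.075, 0.076 and 0.072). The part of mesothelium in the retinoic acid genes was not tested.

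BMP and TGF-beta signalling genes were called in both directions. Of 45 measured members 4 were higher and 9 lower in males (28.9%, median −0.054). Grem1, a secreted BMP antagonist, had 3.43, 5.24, 3.95 and 4.44 CPM in males and 10.7, 10.8, 13.1 and 13.8 CPM in females (−1.51 ± 0.14, adjusted p = 8e-04). The joint and limb ligand gene Gdf5 was lower by a similar amount (2.79 ± 0.471 against 8.37 ± 1.18 CPM, −1.58 ± 0.17). Amhr2, the receptor gene for anti-Müllerian hormone, had 0.942, 1.68, 2.69 and 1.14 CPM in males and 10.4, 8.57, 5.57 and 8.81 CPM in females (−2.38 ± 0.37, adjusted p = 0.015, and 0.11 with no filter on low counts). Its male and female libraries did not overlap. Fst, which binds activins, was higher in males by 0.54 ± 0.06, and so was the BMP receptor gene Bmpr1b by 0.55 ± 0.10 (adjusted p = 0.016, and 0.075 and 0.061 without replicate 2 or 3). With the epithelium covariate, 2 members were higher and 4 lower.

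FGF, hedgehog, Notch and IGF genes differed in how many were called. Fgf10, the mesenchymal ligand that prostate bud growth needs, was higher in males (32.3 ± 3.24 against 18.9 ± 2.82 CPM, 0.77 ± 0.12, adjusted p = 0.0091, and 0.055 without replicate 2). It was 1 of 2 FGF genes called higher, with 1 lower, of 22 measured (13.6%), and with the epithelium covariate 2 were higher and 0 lower. Of 17 hedgehog pathway genes edgeR called 1 higher, 5.88% and so near the share of all genes, and DESeq2 called 3. Gli1, a direct hedgehog target, did not pass the edgeR test (0.35 ± 0.12, adjusted p = 0.13) but did with DESeq2 (adjusted p = 0.041) and in the fit without the litters of female replicates 3 and 4 (0.011). None of 21 Notch genes was called, and at an unadjusted p under 0.05 the edgeR test gave 4 and DESeq2 called 0. Of 19 IGF genes 3 were higher and 6 lower (47.4%, median −0.052), with the binding protein genes split, and with the epithelium covariate 3 were higher and 3 lower. Igfbp6 (0.96 ± 0.07) and Igfbp2 (578 ± 48.6 against 350 ± 10.1 CPM, 0.72 ± 0.06) were higher and Igfbp3 was lower (176 ± 7.06 against 268 ± 26.1 CPM, −0.60 ± 0.06).

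Of 25 genes of JAK-STAT signalling 2 were higher and 1 lower (12%), and with the epithelium covariate 1 and 0. Stat5a, the transcription factor that acts below the prolactin and growth hormone receptors, had 32.5, 30.1, 31.7 and 34.1 CPM in males and 11.9, 11.8, 11.5 and 11 CPM in females (1.47 ± 0.08, adjusted p = 6.2e-05). The prolactin receptor gene Prlr was low in both sexes, at 2.4 ± 0.594 and 0.929 ± 0.298 CPM (1.37 ± 0.29), and with the epithelium covariate its adjusted p was 0.2. Leaving out replicate 1, 3 or 4 gave Prlr an adjusted p of 0.085, 0.11 and 0.1.

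Among 32 purine and peptide signalling genes, 4 were higher and 1 lower (15.6%, median 0.052). Nt5e encodes CD73, the ectoenzyme that makes adenosine, and had 63.4, 60.8, 57.9 and 62.4 CPM in males and 8.17, 8.03, 7.86 and 9.05 CPM in females. The spread within each sex was small beside the log2 difference of 2.88 ± 0.07 (adjusted p = 5.7e-07). Ramp1, which joins the calcitonin-like receptor to make the CGRP receptor, had 23.1, 22.5, 18.5 and 19.8 CPM in males and 7.24, 6.82, 5.46 and 6.12 CPM in females (1.71 ± 0.08). The partner receptor gene Calcrl was higher as well (115 ± 8.92 against 72.7 ± 5.7 CPM, 0.66 ± 0.05). Glp2r, the receptor gene for glucagon-like peptide 2, had 7.12, 8.61, 6.6 and 8.04 CPM in males and 0.5, 0.416, 0.708 and 0.559 CPM in females (3.77 ± 0.19). Enpp2, which encodes autotaxin and makes lysophosphatidic acid, was the 1 lower member (68.2 ± 4.92 against 142 ± 19.8 CPM, −1.05 ± 0.06).

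**Figure D4:**
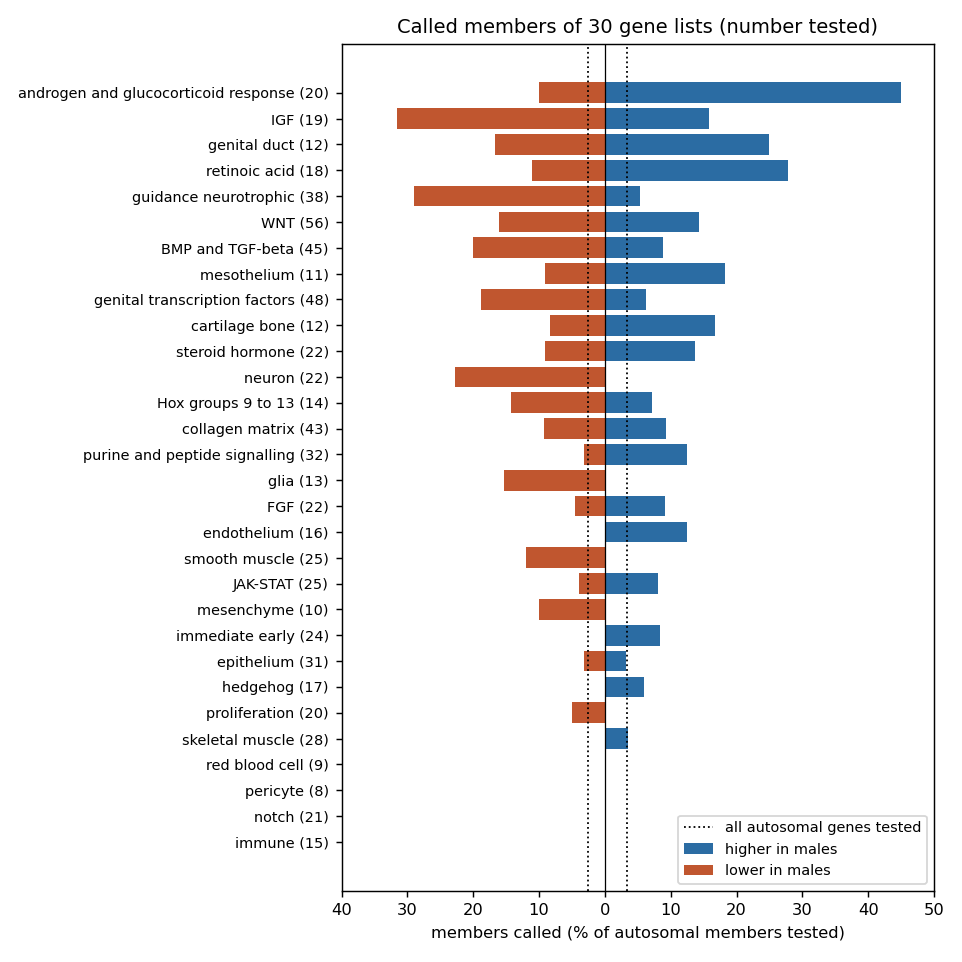
Share of the measured autosomal members of 30 gene lists called higher (blue, to the right) or lower (orange, to the left) in males, with the number of members tested in parentheses on the y axis. Dotted lines mark the shares over all autosomal genes, 3.34% higher and 2.59% lower. The list of genes responsive to androgens and glucocorticoids reaches furthest, at 55% in both directions together.

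Transcription factor genes of genital and limb development were more often lower in males. Of 48 measured, 3 were higher and 9 lower (25%, median −0.187). Foxl2, a forkhead gene of ovary and eyelid development, had 0.377, 0.256, 0.369 and 0.477 CPM in males and 2.94, 2.83, 3.07 and 2.87 CPM in females (−2.97 ± 0.20, adjusted p = 0.00019), so every male library lay below every female one. Sall1, a zinc finger gene of kidney, limb and anorectal development, was lower (34.5 ± 6.15 against 69.7 ± 15.7 CPM, −1.01 ± 0.06). So were the homeobox genes Dlx5 (−0.93 ± 0.13) and Dlx6 (−1.04 ± 0.18) of genital tubercle outgrowth, Alx4 (−0.82 ± 0.10) and Prrx1 (201 ± 5.69 against 289 ± 27.1 CPM, −0.52 ± 0.06), a general mesenchyme regulator. Mkx, a homeobox gene of tendon fibroblasts, led the higher ones (45.6 ± 4.57 against 16.9 ± 1.1 CPM, 1.43 ± 0.09). In the fit of all 16 libraries with litter Sall1, Dlx5 and Wnt5a were no longer called, with an adjusted p of 0.066, 0.076 and 0.07. Of 14 posterior Hox genes, which pattern the caudal body, Hoxb9 was higher (24 ± 1.17 against 15.5 ± 1.02 CPM, 0.63 ± 0.08) and Hoxd13 and Hoxd12 were lower by small amounts, −0.30 ± 0.05 and −0.27 ± 0.06, together 21.4% of the list, and with the epithelium covariate 1 was higher and 1 lower. Hoxd13 lost its call in 7 of 16 alternative fits, among them those without replicate 2 or 3 (adjusted p = 0.056 and 0.068), and Hoxd12 in 10, among them those without replicate 2, 3 or 4 (0.1, 0.11 and 0.079). Dlx6 had an adjusted p of 0.092 with the epithelium covariate. With the epithelium covariate 2 of the 48 factors were higher and 7 lower.

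Matrix, muscle and axon guidance genes were examined as the tissues that this mesenchyme forms or is entered by. Of 43 collagen and matrix genes 4 were higher and 4 lower (18.6%, median −0.049). Aspn, a small leucine-rich proteoglycan gene that restrains TGF-beta, was higher (77.2 ± 5.99 against 28.8 ± 2.96 CPM, 1.42 ± 0.08), as was the hyaluronan synthase gene Has2 (0.64 ± 0.08). Col8a1 (36.3 ± 6.75 against 85.8 ± 18 CPM, −1.23 ± 0.05) and the thrombospondin gene Thbs1 (−0.76 ± 0.08) were lower. Sox9, the transcription factor of cartilage and of prostate bud epithelium, was higher by 0.82 ± 0.12. Of 25 smooth muscle genes none was higher and 3 were lower (12%), and with the epithelium covariate 1 was lower. At an unadjusted p under 0.05 the smooth muscle list held 8 genes, and DESeq2 called 0 higher and 5 lower. The 28 skeletal muscle genes held 1 call (3.57%, below the share of all genes), Trim63, a ubiquitin ligase of muscle wasting (1.61 ± 0.15). The 3 smooth muscle calls, Kcnma1 (−0.59 ± 0.08), Myh11 (−0.40 ± 0.08) and Synpo2 (−0.28 ± 0.06), were each lost in a fit without female replicates 3 and 4 and without litter, with an adjusted p of 0.17, 0.48 and 0.71. Without replicate 1, 3 or 4, Myh11 had an adjusted p of 0.082, 0.11 and 0.078, and leaving out any 1 litter gave Synpo2 values of 0.054 to 0.1.

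Of 38 guidance and neurotrophic genes 2 were higher and 11 lower in males (34.2%, median −0.186) and 25 were not called. With the epithelium covariate 3 were higher and 7 lower. The 2 higher ones were the ephrin receptor gene Epha3 (228 ± 15.8 against 117 ± 18.8 CPM, 0.97 ± 0.07) and Artn (11.3 ± 0.413 against 4.73 ± 0.484 CPM, 1.26 ± 0.11), which encodes artemin, a survival factor for sensory and sympathetic neurons. The lower ones included the ephrin receptor genes Epha5 (−0.94 ± 0.09), Ephb1 (−0.80 ± 0.09) and Epha7 (−0.63 ± 0.08), and Robo2, a receptor for Slit proteins (−0.50 ± 0.07, adjusted p = 0.12 in the fit of all 16 libraries with litter). Of 22 neuron markers all had values below 0, with a list median of −0.279. Of them 5 were called lower (22.7%, against 5.93% of all genes), among them Hand2, Dbh, Elavl3 and Isl2. Hand2 and Dbh did not keep to each other across tissues. In male and female bladder Hand2 stood at 92.1 and 92.7 CPM and Dbh at 6.85 and 3.66 CPM. The Hand2 call is therefore no separate measure of neuronal RNA. The summed level of the neuron markers was 4111 to 6133 CPM in females and 3703 to 4560 CPM in males, so the groups overlapped. Without the litter term Hand2, Dbh and Elavl3 had adjusted p values of 0.095, 0.32 and 0.18, and with the epithelium covariate none of the 5 passed. Without replicate 2 the values were 0.091 for Hand2, 0.17 for Dbh and Elavl3, and 0.12 for Isl2. The Isl2 call was lost in 12 of 16 alternative fits, among them DESeq2 (adjusted p = 0.066) and every fit that left out a litter. The part of neuronal RNA in the guidance genes was not tested.

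Markers of other cell types that such tissue can hold were counted in the same way. Of 31 epithelium markers 27 had values above 0, with a median of 0.661, yet 1 was called higher (Cldn3, adjusted p = 0.047, a call lost in 11 of 16 alternative fits and without replicate 2, 3 or 4, at 0.081, 0.16 and 0.085) and 1 lower. Together these calls were 6.45% of the list, near the 5.93% of all genes. The female spread was wide: Krt7, a keratin gene of urothelium, had 164 ± 24.6 CPM in males and 76.6 ± 31.9 CPM in females (1.18 ± 0.31, adjusted p = 0.11), and Shh, the hedgehog ligand that urethral epithelium secretes, had 81.8 ± 11.3 and 39.9 ± 16 CPM (1.11 ± 0.32, adjusted p = 0.14). Both passed with DESeq2 (adjusted p = 0.012 and 0.038), which called 4 epithelium markers higher, and Krt7 passed in 8 and Shh in 7 of 16 alternative fits, with a smaller difference (0.63 and 0.49) in the fit without the litters of female replicates 3 and 4. With the epithelium covariate 7 markers were higher, among them Krt7 and Shh (adjusted p = 0.0023 and 0.0043), and 3 were lower. That fit thus did not remove the difference in these markers, and its counts cannot be read as free of epithelium. The 1 marker called lower in the main test was Dsc3, a desmosomal cadherin gene of stratified epithelium. It had 5.35, 5.38, 5.09 and 4.62 CPM in males and 27.9, 25, 19.2 and 30 CPM in females (−2.30 ± 0.13, adjusted p = 9e-05). Dsc3 thus went against the direction of most of its list, and every female library lay above all males. The part of epithelium in the Dsc3 difference was not tested. None of 15 immune markers, 8 pericyte markers or 9 red blood cell markers was called by edgeR, and at an unadjusted p under 0.05 the numbers were 2, 2 and 4. DESeq2 called 1 pericyte marker lower and none of the others. Of 20 proliferation genes 1 (5%, near the share of all genes), Top2a, was called (−0.22 ± 0.05), a call lost with the epithelium covariate (adjusted p = 0.15) and without replicate 2, 3 or 4 (0.15, 0.19 and 0.073).

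Markers of the genital ducts were called in both directions. Of 12 duct markers 3 were higher and 2 lower (41.7%, median 0.34). Among those higher in males were Wnt9b and the cadherin gene Cdh16 with 49, 51.2, 52.7 and 36.7 CPM in males and 16.9, 14.8, 13 and 14.3 CPM in females (1.68 ± 0.11, adjusted p = 0.00015), both of Wolffian or nephric duct epithelium. The lower ones were Wnt7a and Amhr2, which belong to the Müllerian duct and its mesenchyme. The summed level of the 12 markers was 269 to 306 CPM in males and 210 to 249 CPM in females, with no overlap. This sum holds the called genes above and mixes markers of both ducts, so it is no separate measure of duct tissue. All 5 called markers were also called with the epithelium covariate. The libraries do not separate duct cells from urethral mesenchyme, and the part of duct tissue in other calls was not tested.

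The largest differences, by a rule that asked for a mean of at least 5 CPM in the higher sex, brought in further genes. Higher in males were Mroh4 (7.71 ± 2.2 against 0.201 ± 0.157 CPM, 5.23 ± 0.39), Habp2, a hyaluronan-binding serine protease gene, with 7.23, 9.08, 10 and 7.26 CPM in males and 0.167, 0.416, 0.27 and 0.28 CPM in females (4.90 ± 0.19), and Cnmd, the chondromodulin gene (6.43 ± 2.3 against 0.787 ± 0.252 CPM, 2.96 ± 0.28). They were followed by the metalloprotease gene Adamdec1 (2.65 ± 0.28), the kinase gene Map3k21 (2.48 ± 0.16) and the immediate early gene Arc (2.36 ± 0.20). Most of these have low levels in females, so single reads weigh on their folds. Psca, a surface antigen gene of prostate and bladder epithelium, had 160, 130, 125 and 155 CPM in males and 51.3, 38.1, 23.3 and 9.26 CPM in females (2.40 ± 0.44, adjusted p = 0.046). Its lowest female values were those of litters 3 and 4, the libraries lowest in epithelium markers, and its adjusted p was 0.14 without replicate 1, 0.23 without replicate 3 and 7e-04 with the epithelium covariate. The gene model Gm32122 on chromosome 8 had 4.48 ± 0.717 CPM in males and 0.0334 CPM in 1 female library, with no read in the other female libraries. It was outside the rule, which leaves out names of that form, and no fold is given.

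Lower in males by the same rule were Cpxm2, a carboxypeptidase family gene (2.57 ± 0.333 against 14.7 ± 3.74 CPM, −2.49 ± 0.16), the metalloprotease gene Adamts18 (7.36 ± 1.2 against 31.2 ± 12.4 CPM, −2.02 ± 0.18), and Hdc, histidine decarboxylase, the enzyme that makes histamine (15.6 ± 3.19 against 53.9 ± 12.7 CPM, −1.78 ± 0.10). Receptor genes were Cckar for cholecystokinin (−1.69 ± 0.18) and Prokr2 for prokineticins (−1.51 ± 0.12). Fam135b (−1.71 ± 0.14) completed them. None of the 24 genes that this rule named lost its call with the epithelium covariate beside litter.

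The sex difference was then set beside that of bladder mesenchyme from the same embryos. In a model of all 16 libraries with litter, 112 autosomal genes of 17617 (0.636%) were called between male and female bladder, 43 (0.244%) higher and 69 (0.392%) lower. Of the 1012 urethra genes that could be tested there, 27 were called in the bladder in the same direction and 2 in the opposite one. The interaction, the urethral minus the bladder sex difference, was called for 157 genes (0.891%), of which 118 had the higher male minus female value in the urethra (0.67%) and 39 the lower (0.221%). Of these 157, 130 were also called within the urethra. That model has litter as its block and leaves out that both tissues of a sex share a pool. With litter and sex together as the block, 142 interaction genes were called, 115 of them among the 157.

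The 10 interaction genes with the smallest p were all higher in male urethra, and none of them passed the test in the bladder, where their differences ran from −0.10 (Ramp1 and Rgs2) to 0.43 (Tfcp2l1). For Nt5e the bladder difference was 0.02 ± 0.11 and the interaction 2.86 (adjusted p = 1e-06). Ramp1 (bladder −0.10 ± 0.06, interaction 1.8), Glp2r (−0.02 ± 0.22, 3.8) and Stat5a (0.24 ± 0.09, 1.22) behaved in the same way, and so did Aldh1a1 (0.26 ± 0.16, 2.22). The others were Clu, the secreted chaperone clusterin gene (urethra 1.48 ± 0.06, interaction 1.5), the LIM protein gene Lmcd1 (0.95 ± 0.06, 0.99), the growth factor gene Pdgfd (94.1 ± 2.41 against 46.1 ± 4.56 CPM, 1.03 ± 0.06, interaction 1.09), Rgs2, which turns off G protein signals (0.73 ± 0.06, 0.82), and Tfcp2l1, a transcription factor gene of duct epithelium (18.6 ± 1.49 against 3.75 ± 0.712 CPM, 2.31 ± 0.14, bladder 0.43 ± 0.14, interaction 1.88). Fkbp5 (interaction 1.07, adjusted p = 0.00048) and Zbtb16 (1.88, adjusted p = 0.0012) also differed between the tissues. For Esr1 (bladder −0.61 ± 0.21, interaction −1.21, adjusted p = 0.088) and Srd5a2 (bladder 0.64 ± 0.65, interaction 1.07, adjusted p = 0.68) a difference between the tissues was not shown. Dkk2 and Crabp1 were lower in males of both tissues, by −1.27 ± 0.18 and −1.86 ± 0.23 in the bladder, with interaction adjusted p values of 0.84 and 0.28.

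**Figure D5:**
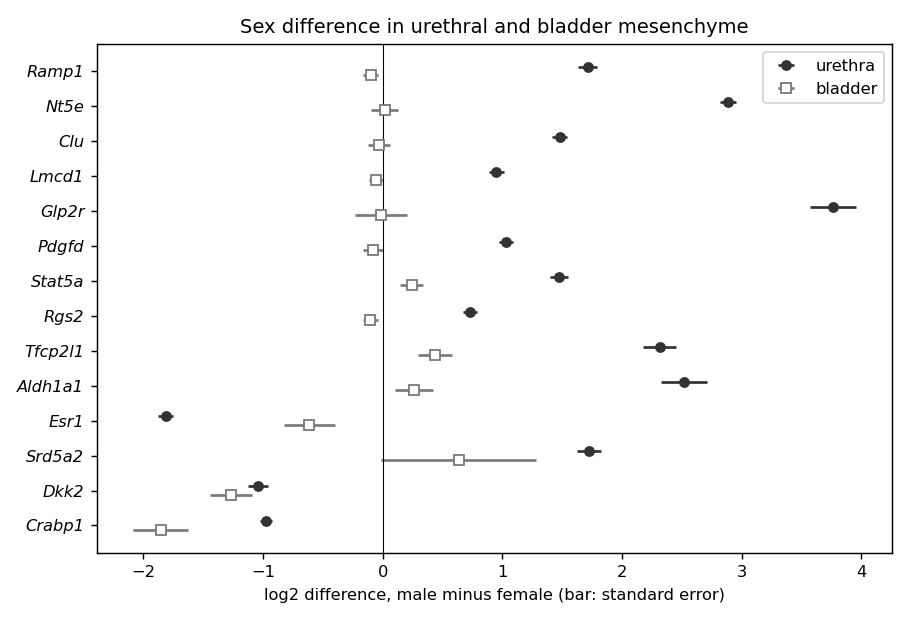
Male minus female log2 difference (x axis, bars are standard errors) in urethral (filled circles) and bladder (open squares) mesenchyme for the 10 genes with the smallest interaction p and for Esr1, Srd5a2, Dkk2 and Crabp1. The 10 were taken only from genes that were also called in the urethra. The 10 genes lie between 0.73 and 3.77 in the urethra and between −0.10 and 0.43 in the bladder, while Dkk2 and Crabp1 lie below 0 in both.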

How the data were processed

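Poly(A)-selected, strand-specific RNA-seq of pooled tissue was used, per the labels' protocols. Per the submitters' processing notes, reads were aligned to GRCm38 with HISAT2 2.1.0 and counted with Subread 1.6.3. The deposited table holds the authors' raw counts of fragments per gene symbol, leaving out, per the file headers, multimapping reads and those that fell on several genes. No source used here names the gene annotation release. The authors' normalized table was not used here. Chi-squared per degree of freedom over counts ran from 5.784 to 37.16 in 12 pairs of libraries of 1 group, so none was a copy of another.

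The 8 urethra libraries were fitted with edgeR 4.0.16 in R 4.3.3 (TMM, filterByExpr, robust quasi-likelihood test) with sex and litter as terms, leaving 3 residual degrees of freedom. P-values were adjusted by Benjamini-Hochberg across the 17739 genes tested on any chromosome, with calls at under 0.05, and the 17119 autosomal ones are reported. Standard errors were computed as the log2 difference divided by the square root of the F statistic. CPM use TMM-scaled totals, and epithelium scores are mean log2 CPM with a prior count of 2. Bladder and interaction values come from 1 fit of all 16 libraries with litter. Counting depth was similar in all 8 libraries, and n is the number of litters.

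The labels give the litter of each pool, which pairs the sexes. The deviations of a litter's male and female library correlated by 0.286, 0.048, 0.11 and −0.059 in litters 1 to 4, against a median of −0.008 between other litters. Named genes are the 12 called autosomal genes with the largest difference in each direction, 4 of 4 litters alike and at least 5 CPM in the higher sex (without Gm and Rik names), up to 3 called members per list and direction with at least 1 CPM, the 10 interaction genes with the smallest p, and 8 genes fixed by name. The 10 interaction genes were taken from those also called in the urethra, with at least 5 CPM in its higher sex. Klf9, Penk, Errfi1, Sgk1, Tiparp, Hsd11b1, Sp5, Wnt4, Rspo3, Sfrp2, Wnt5a, Lef1, Dhrs3, Calcrl, Dlx5, Alx4, Prrx1, Epha7, Robo2, Hand2, Dbh, Greb1, Shh, Krt7, Gli1, Evx2, Gm32122, Slc26a7, Pnoc, Ptn and Zim1 were named after their values were seen. The comparison, the named genes and the 30 gene lists were chosen with earlier results of these data known. Some members of the lists and of the naming rule are not reported here. Lists are described by counts and medians, with no test. Of the lists not described in the report, glia had 0 genes higher and 2 lower of 13 (15.4%) and endothelium 2 and 0 of 16 (12.5%). Mesenchyme had 0 and 1 of 10 (10%), immediate early genes 2 and 0 of 24 (8.33%), and cartilage and bone 2 and 1 of 12 (25%). The share over all autosomal genes was 5.93%. On simulated counts the procedure recovered changed genes, and false calls made up a clearly larger share of the calls than the adjusted p threshold names, so genes near the threshold are less certain than it implies. Alternatives were fits without litter, with all libraries, other scalings and filters, DESeq2 1.42.0, an epithelium covariate, and libraries left out. Figures were drawn with matplotlib 3.10.9 under Python 3.11.15 with pandas 2.3.3.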

Additional observations from a re-analysis of the deposited data

Results flagged for a closer look

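Of 274 groups of 4 libraries examined (each named gene in each sex), 15 had a highest or lowest library whose distance from the next took up more of the group's range than Dixon's criterion allows. Chance alone gives about 1 in 20 such groups. In male litter 1, Angpt1 stood at 29.5, Inhba at 48.2, Loxl1 at 99.9 and Klf9 at 51 CPM, each above the other males, and Hand2 at 115 CPM below them. In male litter 2, Cnmd stood at 9.85 CPM above and Hdc at 10.9 CPM below the other males. Dlx5 was highest in male litter 3, at 11 CPM. Among females, litter 1 was high for Adamdec1 at 2.23 CPM and low for Fam135b at 4.2 and Rspo2 at 28.1 CPM. The 1 female library with a read of Gm32122 was also that of litter 1, at 0.0334 CPM. Female litter 2 was high for Prlr at 1.37 CPM and low for Ephb1 at 19.9 CPM, and female litter 3 was low for Pou3f1 at 2.46 CPM. Apart from Hand2, male and female libraries did not overlap for these genes.

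The male minus female difference was larger in the urethra than in the bladder by an interaction test for Ramp1 (1.8 on the log2 scale), Nt5e (2.86), Clu (1.5), Lmcd1 (0.99), Glp2r (3.8), Pdgfd (1.09), Stat5a (1.22), Rgs2 (0.82), Tfcp2l1 (1.88) and Aldh1a1 (2.22). All 10 were past the threshold in each alternative fit of the interaction.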

How the results depend on the processing

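Of 133 named genes that were called, 77 stayed past the threshold in every alternative fit and none reversed. With no replicate block the counts were 706 higher and 450 lower, against 572 and 443, so the pairing did not move a count by over 1.5 times, and 114 interaction genes were called against 157. With no filter on low counts 731 were lower. With the epithelium covariate 348 were higher and 175 lower, and 275 were lower when that fit had no replicate block. Without female replicates 3 and 4, and with no replicate block, 221 were lower. Leaving out 1 litter at a time gave 268 to 495 higher and 172 to 593 lower genes, 151 to 219 at least 2-fold higher, and 43 to 75 interaction genes. These fits also have fewer libraries. The fewest higher genes came without replicate 3 and the fewest lower without replicate 2 (172), with 238 and 274 lower without replicates 3 and 4, and 353 higher without replicate 2. DESeq2 called 296 interaction genes. Scaling by library totals gave 629 higher and 433 lower. The data have 4 litters and pools of embryos, so variation between embryos is not seen. Duct, epithelium and mesothelium RNA in the samples limits how far a difference can be placed in mesenchymal cells. Small differences of genes with few counts may have been missed at this depth, and how well they are detected was not tested.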

Other observations

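A few genes differed between the sexes in both tissues, from comparisons that use different libraries of the same embryos. The chloride and bicarbonate exchanger gene Slc26a7 was lower in males by −1.45 ± 0.06 on the log2 scale in the urethra (34.1 against 92.8 CPM) and by −1.30 in the bladder. Pnoc, the gene of the nociceptin precursor, was higher in males by 1.48 ± 0.21 in the urethra (7.69 against 2.77 CPM) and by 5.01 in the bladder. Its bladder fold rests on a very low female level (5.02 ± 2.15 against 0.15 ± 0.142 CPM). The Pnoc difference also differed between the tissues by the interaction test (−3.59, adjusted p = 0.024). The 2 genes called in opposite directions were Ptn, the secreted growth factor pleiotrophin, and Zim1, an imprinted zinc finger gene. Ptn was higher in male urethra (625 ± 50.2 against 462 ± 15.5 CPM, 0.43 ± 0.05) and lower in male bladder (−0.48, interaction adjusted p = 0.0029). Zim1 was higher in male urethra (42.6 ± 4.54 against 33.2 ± 6.03 CPM, 0.37 ± 0.07) and lower in male bladder (−0.99, interaction adjusted p = 0.047). In the urethra the females of litters 2 and 3, at 38.5 and 38.3 CPM, lay above the lowest male, at 37.8 CPM. The urethra call of Zim1 was lost in 9 of 16 alternative fits. These genes were picked after their values in both tissues were seen.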
